A study of Drosophila melanogaster with 3 samples.

Results

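MicroRNA genes were taken as the dm6 annotation entries of biotype pre_miRNA, which are the hairpins from which mature microRNAs are cut. The annotation held 262 hairpins, of which 260 lay on the 6 chromosome arms, out of 17683 genes there. A hairpin was called near a binding site when a peak summit of Pointed-eGFP lay within 2 kb of it. By this rule 33 of the 260 hairpins were near a summit of the optimal peak list, and they formed 28 of 203 loci, a locus being hairpins on one strand with gaps of at most 10 kb. The choice of hairpins used no measured value.

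Binding was measured by chromatin immunoprecipitation and sequencing (ChIP-seq) with an antibody against GFP, although the antibody field of the labels reads pnt. The samples were 3 biological replicates of whole Drosophila melanogaster embryos of mixed sex, aged 0 to 24 h, from the pnt-MiMIC-GFP line. In that line an eGFP exon sits inside an intron of pnt, so the endogenous gene makes a Pointed-eGFP fusion protein, and all 3 replicates carried it. Chromatin was sonicated to 200 to 800 bp. There was no second group, so nothing below compares conditions. Whole embryos mix all tissues and stages, and a peak does not say in which cells the protein was bound.

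Pointed is the ETS-domain activator at the end of the EGF receptor, Ras and MAP kinase pathway, and it binds DNA with a GGAA core. Several fly microRNAs are known to act with that pathway. miR-7 represses Yan, the ETS repressor that opposes Pointed, and bantam restrains the cell death gene hid. Many microRNA hairpins are cut from a longer host transcript, so the start site of the precursor can be far from the hairpin. Its seed, bases 2 to 8 of the mature strand, selects the mRNAs it represses.

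RefSeq gave mature strands for all 260 hairpins, 481 arms in all. The following strands are shown because the results below describe their hairpins: those beside stronger summits, those sharing a seed or a host with one of them or lying in spi, and the neighbours mir-275 and mir-305, which share 1 weak peak. Each is written 5′ to 3′ from the dm6 sequence with the seed in capitals.
miR-279-3p: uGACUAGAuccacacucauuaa
miR-996-3p: uGACUAGAuuucaugcucgucu
miR-92a-3p: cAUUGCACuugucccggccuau
miR-92b-3p: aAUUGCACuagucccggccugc
miR-2a-1-3p: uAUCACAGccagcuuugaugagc
miR-2b-2-3p: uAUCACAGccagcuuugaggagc
bantam-3p: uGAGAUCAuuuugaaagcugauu
miR-282-5p: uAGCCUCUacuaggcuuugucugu
miR-375-3p: uUUGUUCGuuuggcuuaaguua
miR-277-3p: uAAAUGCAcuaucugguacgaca
miR-275-3p: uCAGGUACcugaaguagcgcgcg
miR-305-5p: aUUGUACUucaucaggugcucug

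miR-279-3p and miR-996-3p shared the seed GACUAGA, and their hairpins lay 1 after the other in the same host RNA. miR-92a-3p and miR-92b-3p shared AUUGCAC and also a host gene. miR-2a-1-3p and miR-2b-2-3p carried AUCACAG, the seed that pairs with the K box of Notch target mRNAs. The next sequences, 201 bases around 5 summits, are shown because they are peaks beside those hairpins or at the start site of their host. They run 5′ to 3′ on the hairpin's strand, and capitals mark each GGAA or its reverse complement TTCC.
mir-279 upstream summit, chr3R:29214351-29214551, plus strand: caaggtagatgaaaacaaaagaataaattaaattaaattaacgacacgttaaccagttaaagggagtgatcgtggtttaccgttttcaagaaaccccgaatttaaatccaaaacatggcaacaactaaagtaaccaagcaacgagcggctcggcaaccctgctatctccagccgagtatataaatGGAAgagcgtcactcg
mir-92a downstream summit, chr3R:25646904-25647104, plus strand: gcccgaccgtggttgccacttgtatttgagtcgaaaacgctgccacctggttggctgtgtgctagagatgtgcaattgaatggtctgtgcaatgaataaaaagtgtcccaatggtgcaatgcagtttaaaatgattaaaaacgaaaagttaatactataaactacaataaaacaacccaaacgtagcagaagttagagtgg
mir-282 upstream summit, chr3L:3250202-3250402, plus strand: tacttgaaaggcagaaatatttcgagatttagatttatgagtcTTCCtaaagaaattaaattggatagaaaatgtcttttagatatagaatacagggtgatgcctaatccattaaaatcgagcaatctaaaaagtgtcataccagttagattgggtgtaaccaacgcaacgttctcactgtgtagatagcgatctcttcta
bantam upstream summit, chr3L:640656-640856, plus strand: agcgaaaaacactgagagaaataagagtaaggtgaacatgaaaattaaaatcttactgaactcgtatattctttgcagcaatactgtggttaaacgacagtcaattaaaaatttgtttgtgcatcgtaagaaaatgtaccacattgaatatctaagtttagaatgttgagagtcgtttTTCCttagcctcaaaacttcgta
spi TSS summit, chr2L:19575654-19575854, minus strand: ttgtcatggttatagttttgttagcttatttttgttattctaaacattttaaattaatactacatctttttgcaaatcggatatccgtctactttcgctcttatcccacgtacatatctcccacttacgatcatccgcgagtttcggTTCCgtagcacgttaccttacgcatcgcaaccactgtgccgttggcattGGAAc

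A GGAA on either strand was present within 100 bp of the summit for 26 of the 32 distinct peaks near hairpins (81.2%) and for 2751 of all 3646 optimal peaks (75.5%). The longer CCGGAA, which contains GGAA, was in 1 of the 32 (3.12%) against 125 of 3646 (3.43%). CAGGAA, which also contains GGAA, was in 4 of the 32 (12.5%) against 224 of 3646 (6.14%). The core thus had about the same share beside hairpins as in the list at large. Its share in sequence away from peaks was not counted, so these values do not show that the core is enriched at peaks. The window at mir-92a, beside one of the strongest peaks of the hairpins, held no GGAA, and those at mir-279, mir-282 and the weaker, upstream bantam summit held 1 each. The stronger, downstream bantam summit held 0. The spi window held 2.

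The 33 near hairpins were 12.7% of 260 (95% Clopper-Pearson interval 8.90 to 17.4%, counting error only). For comparison, 9.69% of the sequence of the arms lay within 2 kb of an optimal summit. A summit lay within 2 kb of the 5′ end of 20.0% of all genes other than hairpins. Among other short RNA genes, 59 of 290 tRNA genes (20.3%) and 79 of 269 snoRNA genes (29.4%) were near. In the optimal list the hairpins' share was thus nearer to that of sequence than to the 20.0% of all other genes. Long non-coding genes alone, by their 5′ ends, were near in 14.7% of cases, and that was closer to the hairpins' share than sequence was. The median distance from a hairpin to the nearest summit was 9002 bp, against 11376 bp for tRNA genes and 4410 bp for snoRNA genes. The hairpins' share was above that of tRNA genes in windows of 5000 to 15000 bp and below it in the narrower and wider ones tried. Within 10 kb it was 52.7%, against 45.9% for tRNA genes, 74.0% for snoRNA genes and 33.8% of sequence.

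**Figure D1:**
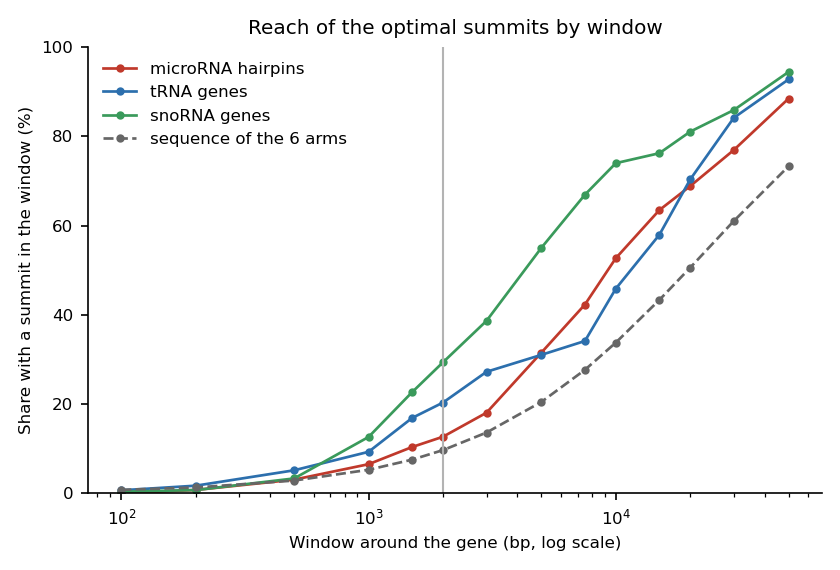
Share of microRNA hairpins, tRNA genes, snoRNA genes and sequence of the 6 arms (y axis, percent) with an optimal summit within a given window (x axis, bp, log scale). At 2000 bp, marked by the grey line, the values are 12.7% of hairpins, 20.3% of tRNA genes, 29.4% of snoRNA genes and 9.69% of sequence.

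The same call was repeated in each replicate with its top list, the 3646 peaks of highest signal, a list as long as the optimal one. It gave 32 hairpins in replicate 1, 31 in replicate 2 and 35 in replicate 3, or 12.6% ± 0.80 of the hairpins (SD, n = 3). The sequence within reach was 9.62%, 9.76% and 9.55%, so the hairpins' share was higher in 3 of 3 replicates, by 2.92 ± 0.89 percentage points (SD, n = 3). The share of other genes with a summit near the 5′ end was 20.4%, 17.5% and 21.9%, and the hairpins' share was below it in every replicate, the mean difference being -7.36 ± 1.51 percentage points (SD, n = 3). With 3 pairs a two-sided exact sign-flip test cannot go below 0.25, so no test result is given for these differences.

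**Figure D2:**
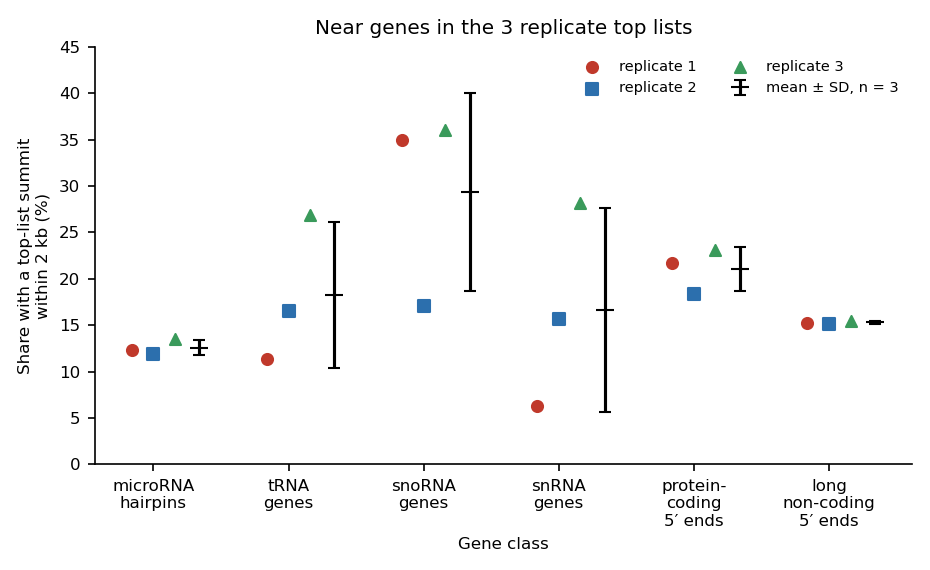
Share of each gene class with a top-list summit within 2 kb (y axis, percent) in replicates 1 to 3, with the mean and SD of the 3 values in black. Hairpins stay between 11.9% and 13.5%, while tRNA genes range over 11.4% to 26.9% and snoRNA genes over 17.1% to 36.1%.

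The share of hairpins spread less over replicates (SD 0.80) than that of tRNA genes (SD 7.90) or snoRNA genes (SD 10.6). tRNA genes were near in 11.4%, 16.6% and 26.9% of cases in replicates 1, 2 and 3, and snoRNA genes in 34.9%, 17.1% and 36.1%. The tRNA value in replicate 1 was therefore below the hairpins' 12.3% there, and the order of these classes is not the same in every replicate. Long non-coding genes, by their 5′ ends, stood at 15.3% ± 0.16 (SD, n = 3), and protein-coding genes at 21.0% ± 2.40 (SD, n = 3).

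The relaxed lists, 30000 peaks in each replicate and meant to hold background too, reached large parts of the genome. They put 181, 145 and 176 hairpins near a summit, or 69.6%, 55.8% and 67.7%. They covered 56.7%, 57.8% and 44.0% of the sequence within 2 kb, and the 5′ ends of 71.4%, 62.7% and 68.4% of other genes. In replicates 1 and 3 the hairpins' share was nearer to that of other genes than to that of sequence. In replicate 2 the hairpins' share was below that of sequence. The relaxed list pooled over replicates gave 134 hairpins (51.5%), with 45.7% of sequence and 64.0% of other genes. In all, 92 hairpins were near in all 3 relaxed lists, 29 of the 33 near an optimal summit among them, and 21 were near in none of the lists, pooled and optimal included.

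In the 3 top lists together, 18 hairpins were near in all 3, 9 in 2, 26 in 1 and 207 in 0. All 18 were also near an optimal summit, as were 8 of the 9 and 7 of the 26. The replicate lists were the input to the optimal list, so this describes how steady the calls were and is not an independent test. Neither these counts nor the 92 near in all 3 relaxed lists were made for other genes. They do not show whether hairpins differ from other genes in this.

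The near summits lay outside the hairpins, although the peak at mir-2491 overlapped its hairpin. Distances to the strongest near summit ran from 153 bp at mir-2491 to 1988 bp, with a median of 1134 bp over the 33 hairpins. Counting any optimal summit, 17 of the 33 had one within 1000 bp. No near summit fell inside a hairpin. An optimal summit lay within 100 bp of 0% of hairpins, 0.690% of tRNA genes and 0.793% of sequence. With shares this small, the absence is not read as a trait of hairpins. The strongest near summit lay upstream of 23 hairpins (21 loci) and downstream of 10 (7 loci). There were 32 distinct peaks, 0.878% of the optimal list. Only mir-ban, mir-9377, mir-375 and mir-4968 had 2 near summits. Peak signal is the authors' value for each peak, of a scale the sources used here do not state, and serves only to rank peaks within a list. It ranged from 93.4 to 807 with a median of 146, against 154 over all optimal peaks, and 15 of 33 hairpins were above that median. Counted by hairpin in the same way, the strongest near peak overlapped a peak of all 3 top lists for 17 of 33 (51.5%). Of all optimal peaks, each counted once, 57.0% did, so the 2 shares are not ranked.

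**Figure D3:**
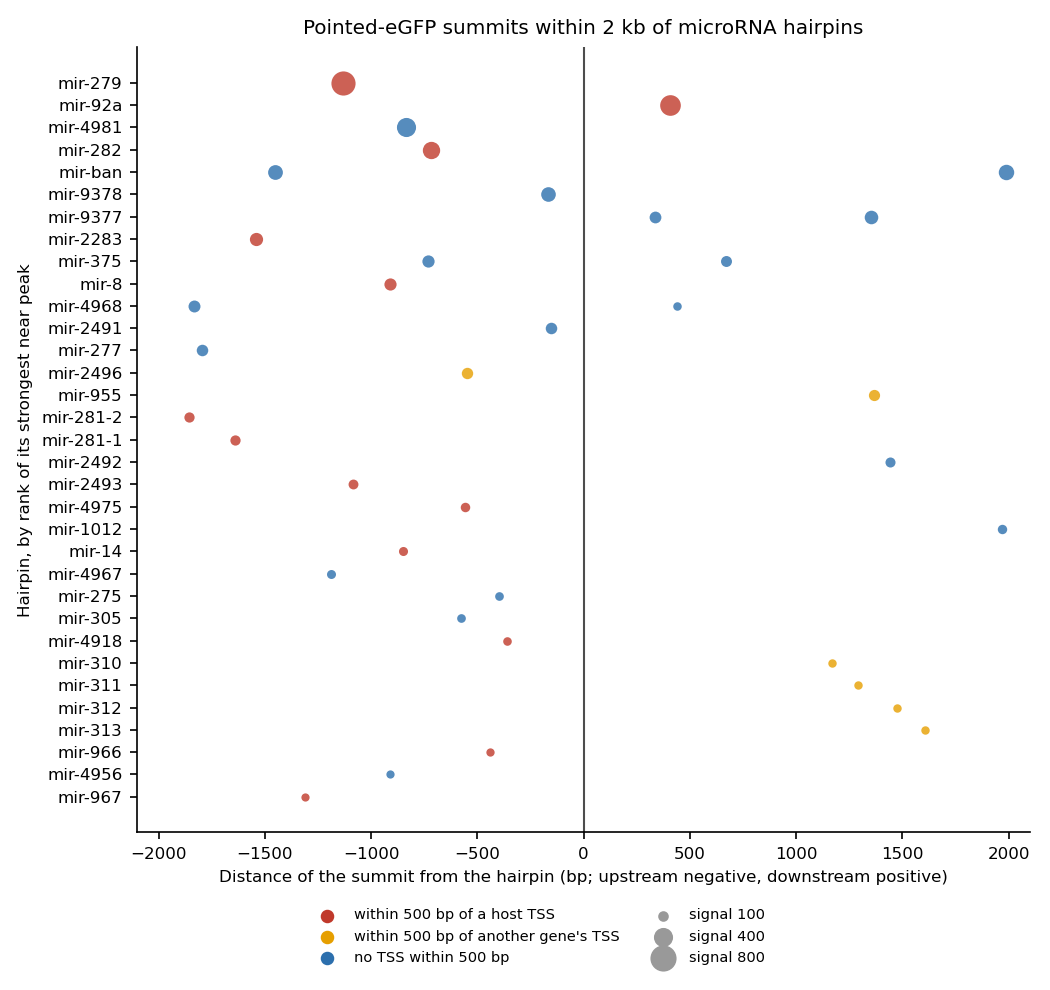
Position of each near summit relative to its hairpin (x axis, bp, upstream negative) for the 33 near hairpins, listed from the strongest peak down. Dot area follows peak signal and colour shows whether a TSS lies within 500 bp. The strongest summit is upstream for 23 hairpins and downstream for 10, and no dot sits at 0.

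The strongest site belonged to mir-279, which limits the number of carbon dioxide sensing neurons and JAK/STAT signalling in border cells. The hairpin is at chr3R:29215585-29215684 on the plus strand, in an exon of the long non-coding RNA lncRNA:CR31044. Its summit was 1134 bp upstream and 111 bp from that RNA's transcription start site (TSS). The peak had signal 807, rank 60 of 3646 in the optimal list. Its rank was 76 in replicate 1, 109 in replicate 2 and 47 in replicate 3, so all 3 replicates placed it among their strongest peaks. mir-996, which has the same seed, is in the same RNA and 2733 bp from the same summit, outside the window. The rule therefore called the 2 hairpins of this transcript differently, though the start site at the peak is the same.

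mir-92a came next, at chr3R:25646506-25646600 in an intron of jigr1, a gene for a MADF-domain protein. miR-92a and miR-92b keep neuroblasts self-renewing. The summit was 404 bp downstream of the hairpin, with signal 590, rank 139, and ranks of 118, 153 and 211 in replicates 1, 2 and 3. It was 242 bp from a jigr1 TSS, but the transcript from that internal start site does not contain the hairpin. mir-92b, 4394 bp from the summit, is not in that transcript either. The jigr1 start site whose transcripts do span mir-92a had a weaker optimal peak of signal 96.2, rank 3477, whose summit was 59 bp from that TSS and 8722 bp from the hairpin.

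mir-282 is at chr3L:3251022-3251118 in an exon of lncRNA:CR43626. Its peak had signal 415, rank 308, and ranks of 278, 265 and 451 in replicates 1, 2 and 3. The summit was 720 bp upstream and 292 bp from a TSS of the host, but again the transcript starting there does not contain the hairpin. The peaks at mir-92a and mir-282 thus lay at a start site of the host gene but not at the start of an annotated transcript that contains the hairpin.

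bantam (mir-ban), at chr3L:642208-642288, promotes growth and blocks cell death. It lay between 2 summits at similar strength. The downstream one was 1988 bp away, only just inside the window, with signal 330, rank 479, and ranks of 502, 599 and 454 in the replicates. The upstream one was 1452 bp away with signal 302, rank 576, and ranks of 404, 746 and 945. Neither was within 500 bp of a TSS. The host, lncRNA:CR43334, also known as pri-bantam, had weaker optimal peaks at its distal start sites, of signal 106 and 97.9, which were 14270 and 13719 bp from the hairpin.

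mir-375 (chr2L:857542-857632, in lncRNA:CR45345), whose mammalian counterpart is known from pancreatic islets, also had a summit on each side. They were 733 bp upstream (signal 207, rank 1141) and 669 bp downstream (signal 166, rank 1632). Both were in the top lists of all 3 replicates, with ranks of 1297, 833 and 1699 for the upstream peak. mir-277 (chr3R:10100022-10100121, in lncRNA:CR43459), a regulator of branched-chain amino acid catabolism, had a summit 1795 bp upstream, signal 183, with ranks of 1351, 2445 and 1246. mir-34, in the same RNA and linked to ageing, was 2709 bp from that summit and not called. mir-275 and mir-305 shared a weak upstream peak of signal 105, rank 3085, with ranks of 2400, 14426 and 6509. That peak reached the top list in replicate 1 only.

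mir-8 and mir-14 lie on chromosome arm 2R. mir-8 (chr2R:16831432-16831518), which tunes growth and Wingless signalling, had a summit 910 bp upstream and 167 bp from the TSS of its host lncRNA:CR43650. The peak had signal 206, and its ranks in replicates 1, 2 and 3 were 1583, 2082 and 497. mir-14 (chr2R:9553762-9553824), a suppressor of cell death, had a summit 851 bp upstream and 67 bp from the TSS of lncRNA:CR43651. The signal was 113, with ranks of 4282 and 2327 in replicates 1 and 3 and no overlapping peak in replicate 2. For mir-8 all 3 replicates placed the peak in the top list, and for mir-14 only replicate 3 did.

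mir-4981 (chr2R:8015249-8015343, no host on its strand) had the peak next in signal after mir-92a, 505, rank 206, with a summit 836 bp upstream. That summit was 658 bp from the TSS of CG14762, outside the 500 bp used here. Its ranks were 337, 509 and 62. mir-9378, in an intron of CG17124, had a summit 167 bp upstream with signal 296 and ranks of 2078, 2207 and 110. Replicate 3 was the highest for both.

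The other near hairpins with peaks above the optimal median were in hosts or beside genes as follows. mir-9377 lay in an intron of Tis11, an mRNA decay factor, with summits 336 and 1351 bp downstream and signals of 192 and 255. mir-2283 lay in an intron of Kdm3, with a summit 1542 bp upstream, 25 bp from a TSS of Kdm3 and of CG8176, and signal 241. mir-4968, in an intron of Mob2, had summits 1834 bp upstream and 439 bp downstream with signals of 197 and 100.3. mir-2491 lay in an intron of fog, the gastrulation ligand, 153 bp from a summit of signal 184. mir-2496 and mir-955 had no host on their strand, and their summits, of signal 179 and 174, were at the TSS of lncRNA:CR45478 and CG14968.

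Weaker peaks, from signal 146 down to 93.4, accounted for the remaining 18 near hairpins: mir-281-1, mir-281-2, mir-2492, mir-2493, mir-4975, mir-1012, mir-14, mir-4967, mir-275, mir-305, mir-4918, mir-310, mir-311, mir-312, mir-313, mir-966, mir-4956 and mir-967. Their replicate ranks were uneven. For mir-14, mir-4918, mir-966 and mir-4956 the peak overlapped nothing in the relaxed list of replicate 2. mir-967, in bun, ranked 14802, 6288 and 1517, and mir-2493, in CG42788, ranked 3361, 19638 and 904.

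**Figure D4:**
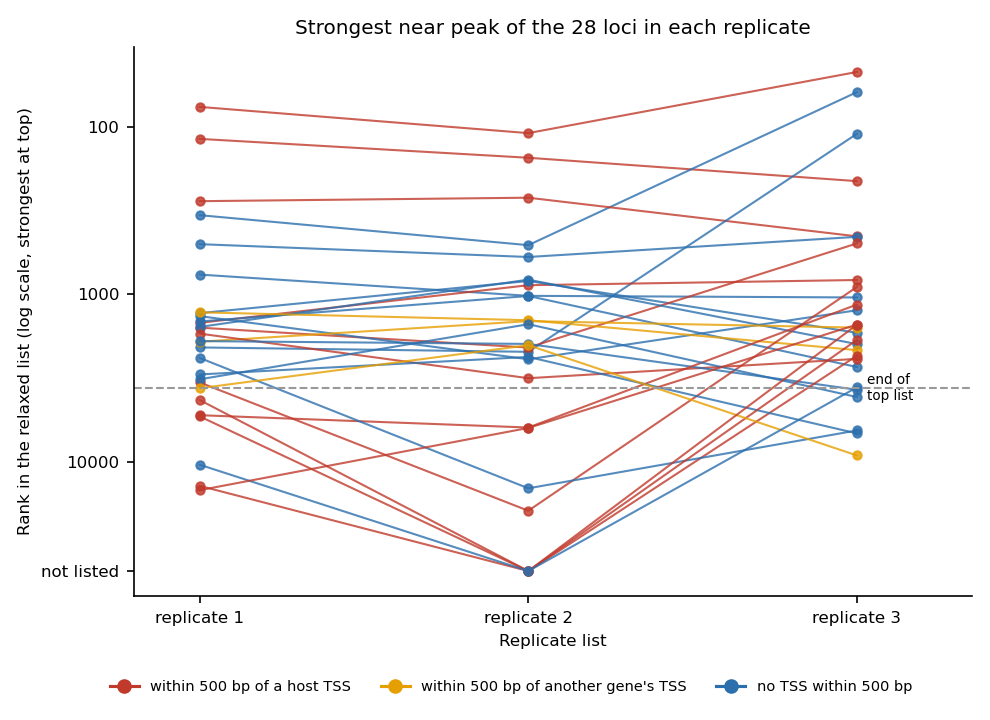
Rank of the strongest near peak of each of the 28 near loci in the relaxed list of each replicate (y axis, log scale, strongest at the top), coloured by the nearest TSS. The dashed line is the end of the 3646-peak top list. 4 loci have no overlapping peak in replicate 2.

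Of the 260 hairpins, 182 lay in a host gene on their own strand and 78 did not, 27 of these lying only in a gene on the other strand. Hairpins in introns of protein-coding hosts were near in 14 of 69 cases (20.3%) and those in non-coding hosts in 8 of 46 (17.4%). The 69 lay in 59 loci and the 46 in 32, so clustered hairpins count more than once and these 2 shares are not ranked. Hairpins with no host were near in 8 of 78 (10.3%). Hairpins that fill a short intron from end to end to within 3 bp, as mirtrons do, were near in 2 of 31 (6.45%), and those in exons of protein-coding hosts in 1 of 36. In the top lists of replicates 1, 2 and 3, the non-coding hosts gave 8, 11 and 7 near hairpins, the introns 11, 10 and 13, the short introns 1, 1 and 3, and the exons 1, 1 and 2. Hairpins with no host gave 11, 8 and 10. In replicate 1 the introns (15.9%) and the hairpins with no host (14.1%) were close together, and they were 14.5% against 10.3% in replicate 2 and 18.8% against 12.8% in replicate 3.

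**Figure D5:**
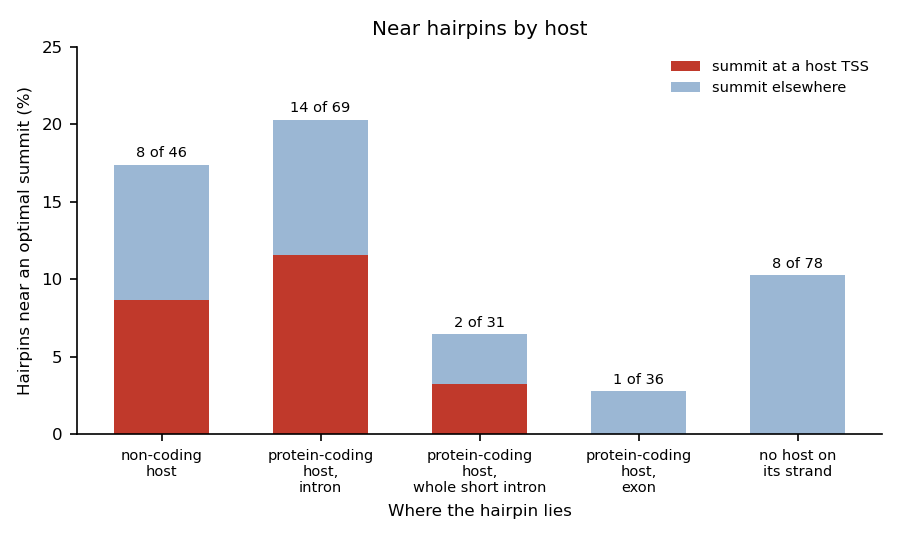
Share of hairpins near an optimal summit (y axis, percent) by where the hairpin lies. The lower, red part of a bar counts hairpins whose near summit is within 500 bp of a TSS of the host, which is 4 of 8 for non-coding hosts and 8 of 14 for introns of protein-coding hosts, mir-281-1 and mir-281-2 by the TSS of an overlapping non-coding host.

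The near summit was within 500 bp of a host TSS for 13 of the 25 near hairpins that had a host. Their hosts were lncRNA:CR31044 (mir-279), jigr1 (mir-92a), lncRNA:CR43626 (mir-282), Kdm3 (mir-2283), lncRNA:CR43650 (mir-8), asRNA:CR46194 (mir-281-1 and mir-281-2), CG42788 (mir-2493), chk (mir-4975), lncRNA:CR43651 (mir-14), tex (mir-4918), Pfas (mir-966) and bun (mir-967). mir-281-1 and mir-281-2 lie in an intron of Oda, a protein-coding gene, and also in asRNA:CR46194, and their summit was at the TSS of the non-coding host only. Of the 14 near hairpins in introns of protein-coding hosts, 6 thus had the summit at the TSS of a protein-coding host. Over the 13, the transcript from the start site at the summit contained the hairpin for 11, mir-92a and mir-282 being the exceptions. The summit was upstream of the hairpin for 12 of the 13, and a start site whose transcript contains a hairpin lies upstream of it by construction. For the other 20 near hairpins, 11 strongest summits were upstream. Of those 20, 6 hairpins in 3 loci had the summit at the TSS of a gene that is not their host, and 14 had no TSS within 500 bp.

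By median rank, replicate 3 placed the host TSS sites of the near hairpins highest. The median ranks of the 13 were 1718, 3173 and 1152 in replicates 1, 2 and 3, an unlisted peak counting as last, and 9 of the 13 were ranked highest by replicate 3. That was so for 5 of the 20 other near hairpins. Over all optimal peaks, replicate 3 ranked highest 35.2% of the 1764 peaks within 500 bp of a TSS and 25.5% of the 1882 others. The median ranks of the 1764 were 1543, 1746.5 and 1641 in replicates 1, 2 and 3, so replicate 1 was highest by that measure. Those of the 1882 were 2004, 1795.5 and 2411.5. The part of these differences between replicates in the host TSS calls was not tested.

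The 2 kb rule misses start sites of long hosts, so each host was also examined at any distance. In that count 48 of the 182 hosted hairpins had an optimal summit within 500 bp of a host TSS, and for 42 of them the transcript from that TSS spans the hairpin. By gene, 39 of 128 protein-coding hosts (30.5%) had such a summit, against 15.8% of all protein-coding genes. Of the non-coding hosts 6 of 37 did (16.2%), against 5.63% of all long non-coding genes. Hosts are longer than other genes, with median spans of 14094 against 2166 bp for protein-coding and 6436 against 706 bp for non-coding genes, and protein-coding hosts had a median of 2 start sites against 1. Among protein-coding genes within the middle range of host spans, 3996 to 29776 bp, 26 of 64 hosts (40.6%) and 769 of 3472 other genes (22.1%) had a TSS summit. Host status was chosen from the annotation, and these shares are given without a test.

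A strong host start site outside the window was that of spi, which encodes Spitz, the main EGF receptor ligand of the embryo. An intron of spi holds mir-2a-1, mir-2a-2 and mir-2b-2. The peak shown above had signal 594, rank 137, and ranks of 84, 191 and 240 in replicates 1, 2 and 3. Its summit was 167 bp from a spi TSS whose transcript spans all 3 hairpins, and 5782, 6193 and 5490 bp from them. A second peak, of signal 233, overlapped the first, and its summit lay 373 bp from a spi TSS. A weaker one, of signal 112, lay 256 bp from a further start site. That weaker peak was the nearest to the hairpins, at 2894, 3305 and 2602 bp. By the 2 kb rule none of these hairpins was near, although their host had 3 optimal peaks at its start sites, the first and second overlapping.

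mir-7 lies on chr2R:20606067-20606154 in an intron of HnRNP-K, also known as bl. Its nearest optimal summit was 2702 bp away, so it was not called. That peak was weak, with signal 101, rank 3243, and ranks of 14800, 3967 and 2316 in the replicates, in the top list of replicate 3 only. It was 383 bp from an HnRNP-K TSS, but the transcript that starts there does not reach the hairpin. Other hosts with strong start site peaks and a hairpin outside the window were PAPLA1 (mir-4984, signal 576, rank 148) and MRP (mir-9382, signal 458, rank 248), whose transcripts from those sites span the hairpin. The gene for, which encodes a cGMP-dependent protein kinase and holds mir-4972, had signal 611, rank 130, at a TSS whose transcript does not contain that hairpin. Btk, with mir-2b-1 in an exon, had signal 307, rank 558, also at a TSS whose transcript does not contain the hairpin. mir-33 lay in SREBP, the lipid synthesis regulator, with a peak of signal 144 at its TSS, 3543 bp from the hairpin.

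Of the 33 near hairpins 10 (30.3%) shared a seed with another hairpin, against 73 of all 260 (28.1%). Shared seeds were thus about as common among near hairpins as among all, with hairpins of a locus counted separately. The miR-92 seed AUUGCAC had 6 hairpins, 5 of them near: mir-92a, and the neighbours mir-310, mir-311, mir-312 and mir-313, which act on Wingless and Hedgehog signalling. Those 4 form 1 locus (mir-310 at chr2R:20583752-20583840) and shared 1 weak peak, signal 98.4, rank 3373, downstream of them and 452 bp from the TSS of qsm. Its ranks were 3642, 2015 and 9184. The 5 hairpins are thus 2 loci, and the family count is not 5 separate observations. mir-279, mir-996 and mir-286 shared GACUAGA, with mir-279 near. The largest seed group, the K box seed AUCACAG, had 14 hairpins, some of them in the same locus, and 0 near, with nearest summits from 2602 bp upward. Beyond those in spi, Btk, E2f1 and the mir-309 cluster, they were mir-2c, mir-13a and mir-13b-1 at 10174, 10403 and 10544 bp, mir-13b-2 at 17946 bp and mir-308 at 30880 bp.

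Lists of known microRNAs gave the following counts, those of near hairpins to be read against the 12.7% of all hairpins. Of 13 hairpins linked to EGF receptor signalling or cell death, 4 were near (mir-ban, mir-279, mir-14 and mir-8), and 6 had a summit at a host TSS at any distance, mir-7 and mir-996 being the others. That held for 48 of all 260 hairpins (18.5%), and for mir-7 the transcript from the TSS does not reach the hairpin. mir-bft (also called mir-263a), which protects sensory bristle cells from death, was 3333 bp from its nearest summit, and mir-11, a repressor of cell death genes inside E2f1, was 3070 bp away. mir-278 and mir-263b were 22103 and 27959 bp away. None of the 3 hairpins of the let-7 complex, which times the larval to adult transition, was near (5146 to 6037 bp), and none of the 8 of the mir-309 cluster, which clears maternal mRNAs in the early embryo (8114 to 9093 bp). The 8 muscle and neural microRNAs had 0 near. mir-34 was the closest of them, at 2709 bp, then mir-9a at 4306 bp, mir-315 at 6650 bp, mir-184 at 8919 bp, mir-124 at 16748 bp, mir-133 at 28792 bp, mir-1 at 39672 bp and mir-276a at 153805 bp. The 4 of the Hox clusters (mir-10, mir-993, mir-iab-4 and mir-iab-8) had 0 near as well, at 9216 to 13415 bp.

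The proteins that make and use microRNAs are ordinary genes, so they were counted by a summit inside or within 2 kb of the whole gene, which held for 27.1% of all genes other than hairpins. It held for 7 of 13. Ranbp21, the exportin-5 that carries hairpins out of the nucleus, had a summit 94 bp from its TSS, signal 184. gw, which encodes the silencing factor GW182, had one 133 bp from its TSS, signal 187. Ars2, a cap-linked processing factor, had one at 151 bp, signal 156, and r2d2, the partner of Dicer-2, one at 136 bp, signal 430, with the TSS of Herp closer, at 47 bp. pasha, the partner of Drosha, was 1812 bp from the strongest of these peaks, signal 895, rank 52, but that summit was 5 bp from the TSS of Mnat9. loqs, the partner of Dicer-1, and Hen1, which methylates small RNAs, were near a summit at a neighbour's TSS, CG7099 and bsd. drosha, Dcr-1, AGO1, me31B, AGO2 and Dcr-2 were not near, the closest being drosha at 2323 bp.

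At the border of the window, no hairpin had its nearest optimal summit between 1969 and 2125 bp. By the nearest summit of each, the near hairpins farthest out were mir-1012 at 1969 bp, mir-281-2 at 1856 bp, mir-277 at 1795 bp, mir-281-1 at 1638 bp and mir-313 at 1606 bp. The closest of those not called were mir-2498 at 2125 bp, mir-4982 at 2364 bp, mir-998 at 2452 bp, mir-2b-2 at 2602 bp, mir-991 at 2616 bp, mir-9373 at 2691 bp, mir-7 at 2702 bp and mir-9383 at 2704 bp. mir-2498 and mir-991 share the qsm peak with mir-310, and mir-4982 had its summit, signal 223, 309 bp from the TSS of its host Hs3st-A. By chromosome arm, 5 of 58 hairpins were near on X, 6 of 56 on 2L, 11 of 55 on 2R, 4 of 31 on 3L, 7 of 58 on 3R and 0 of 2 on chromosome 4. In the same order, the arms held 702, 694, 659, 727, 852 and 12 optimal peaks.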

How the data were processed

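The files were peak lists on dm6 in narrowPeak form, made by the authors from ChIP-seq reads against a control. Per the file notes, each replicate and the pool of all 3 gave a relaxed list of peaks and background, and from these the optimal list was derived by an irreproducible discovery rate threshold. No source used here states the caller, the aligner, the threshold or the read depth. The signal of each peak is the authors' value in the deposited lists, on an unstated scale. The deposited −log10 q per peak was not used to select peaks, and the summit offset per the file notes counts from the peak start. Lists on another build were not used.

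Summits, hairpins, hosts and start sites were joined in Python 3.11.15 with numpy 2.4.6 and scipy 1.17.1. Near calls with their distances, the grouping into loci and the placement in exons or introns were tested on simulated data. Matches to hosts, to start sites and between lists were not part of that test. Hairpins, genes and TSS came from the Ensembl annotation and mature strands and sequence from RefSeq, both of the dm6 assembly. A summit was at a TSS within 500 bp. Peaks of different lists were matched by an overlap of at least 1 bp. Every near hairpin is named, and the 15 strongest sites, the microRNAs of the lists and the hairpins at the border of the window get values, clusters as a range. The members and lists were chosen with earlier results of these data known. With 1 group of 3 replicates, no comparison of conditions was possible. The labels call the replicates biological, and no source used here says more about how they were collected.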

Additional observations from a re-analysis of the deposited data

How the results depend on the processing

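The counts followed the window, as they must. With windows of 500, 1000 and 5000 bp, 8, 17 and 82 hairpins were near an optimal summit, in 8, 16 and 65 loci, and 3, 7 and 32 of them had a near summit at the host TSS. Those beside a peak of all 3 top lists were 4 and 9 at 500 and 1000 bp. With the stronger optimal peaks alone (the upper 50% by signal) the counts were 15 hairpins, 15 loci and 5 at the host TSS. With the pooled relaxed list they were 134, 117 and 32. Top lists of 50% the length gave a mean of 15, and the stronger 50% of each relaxed list a mean of 107. Counting any part of a peak gave 34 hairpins, 28 loci and 13 at the host TSS. Joining loci at smaller gaps gave 28 loci, and the host TSS count was 13 with hosts on either strand and 14 with a TSS distance of 1000 bp. With 1 replicate left out at a time, 27 to 33 near hairpins still had an optimal peak that was in a remaining top list. The optimal list itself was not rebuilt, so this count could not exceed 33. The hairpins beside a peak shared by the remaining top lists were 17 to 24. Means were 31.5 to 33.5 in the top lists and 160.5 to 178.5 in the relaxed lists. No paired analysis was possible because there was 1 group only, so no conditions could be paired, and the differences given per replicate are between gene classes of the same list. The number of reads is unknown, so a hairpin without a summit may lie beside sites too weak for the list. The distance of 2 kb takes no account of which transcript a site serves.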

Other observations

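Away from the optimal list, 20 hairpins were near a summit of at least 1 top list without being near an optimal summit. mir-4942 was near in the top lists of replicates 1 and 2, with the nearest optimal summit 460347 bp away. mir-1, the muscle microRNA, was near in the top list of replicate 2, as were the neighbours mir-2c, mir-13a and mir-13b-1. mir-954 and mir-9385, the hairpins of chromosome 4, were near in the top lists of replicates 3 and 1. These values are listed without explanation, and no matching count over other genes was made.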
